A study of Bos taurus with 10 samples.

Results

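The phagocyte NADPH oxidase, the peroxidase that uses its product and the nitric oxide synthases were followed in mammary tissue of lactating cows. Members were the 9 genes CYBB, CYBA, NCF1, NCF4, RAC2, RAC1, MPO, NOS2 and NOS3, taken with all 15 probe sets that carry only that gene symbol in the platform annotation, of 24016 probe sets in all. Among these members, the transcripts of 2 genes stood higher in udder glands neighboring an infected one than in glands of healthy cows. They were NCF4, a regulatory subunit of the oxidase, and RAC1, a broadly expressed small GTPase. The membrane subunits CYBB and CYBA and the organizer NCF1 did not pass the test. MPO, NOS2 and NOS3 gave dim signals, with 1 of 4 NOS2 probe sets lower. Among all probe sets above an intensity filter 17.7% were called higher. Without the filter 9.21% were called lower, and the NOS2 call was not made on all 10 arrays.

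The neighboring group consisted of 5 German Holstein Frisian cows in their first lactation. One gland of each udder had been inoculated with the mastitis isolate E. coli 1303, at 500 CFU in 2 ml. Tissue came from glands without bacteria, 24 h later. The control group consisted of 5 healthy uninoculated cows of the same kind, and the cows of both groups had been synchronized with cloprostenol and milked out with oxytocin. Per the sample sheet of the study, neighboring samples were pools of a saline-treated and an untreated gland, with neighboring 4 from a single untreated gland. Control samples were pools of a pair of glands, with control 3 and control 5 from a single gland. Each cow gave 1 array, so the spread between arrays holds animal and technical variation together.

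The phagocyte oxidase makes superoxide by passing electrons from NADPH to oxygen across a membrane. CYBB is its catalytic subunit and CYBA the partner that stabilizes CYBB. On activation cytosolic proteins, NCF1 and NCF4 among them, and a RAC GTPase join them at the membrane. MPO, stored in neutrophil granules, turns the hydrogen peroxide derived from superoxide into hypochlorous acid. Nitric oxide synthases make nitric oxide from arginine, NOS2 after induction by bacterial products and cytokines, and NOS3 in vascular endothelium under the control of calcium and calmodulin. Neutrophils that enter the udder during mastitis carry the oxidase and MPO.

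Values are RMA values on a log2 scale, where a difference of 1 is 2-fold. Following the methods of the study, the fit held 8 arrays, 4 per group, because the study kept neighboring 5 out of it as a biological outlier and control 3 as a technical one. Values of both are given below, and results on all 10 arrays stand beside each call of a member. A change was called at an adjusted p under 0.05 in limma, adjusted over the 14409 probe sets that passed an intensity filter. The filter removed the dimmest 40% of probe sets by their mean over the 10 arrays. It kept 8 member probe sets of 6 genes and left out 7 of MPO, NOS2 and NOS3, whose values come from the same fit without a filter. Array medians lay between 6.25 and 6.27. The spiked transcripts that control hybridization averaged 10.20 to 10.43 on the 4 neighboring arrays of the fit, against 10.42 to 10.84 on its 4 control arrays. With their level as a covariate 0 of the 8 kept member probe sets were called higher. NCF4 then differed by 0.96 ± 0.22 and RAC1 by 0.74 ± 0.16 and 0.43 ± 0.15 (SE), where the SE without the covariate was 0.13, 0.09 and 0.09. Spike levels of the groups hardly overlapped, so the covariate and the group can hardly be told apart. The tissue carried its defining transcripts, as the milk protein genes CSN2 and LALBA averaged 14.77 and 14.28 in neighboring glands, against 14.68 and 14.38 in control glands.

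Of the 8 kept member probe sets, 3 were called higher and 0 lower in limma. Over all 14409 probe sets 17.7% were called higher and 12% lower. In bulk tissue, a change in the number of cells of a type and a change in RNA per cell cannot be told apart. The 3 stood for 2 genes, and the count is read against that background without a test of its own. Unadjusted, 4 of the 8 had a p under 0.05, as did 6121 of all 14409. Their median difference was 0.11, beside 0.025 over all kept probe sets. On all 10 arrays the same 3 probe sets were called higher, where 7.16% of all probe sets were. The neighboring arrays of the fit lay above every control array of the fit for 3 of the 8, as they did for 18.4% of all kept probe sets. Of the 7 probe sets under the filter 0 were called higher and 1 lower, beside 11.1% and 9.21% of all probe sets in the fit without a filter.

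The membrane core of the oxidase showed no called change. CYBB, the catalytic subunit, was measured by a pair of probe sets. The one with the higher signal read 7.03, 7.50, 7.07 and 7.06 on neighboring 1 to 4 and 6.92 on neighboring 5. On control 1, 2, 4 and 5 it read 7.06, 7.53, 7.57 and 6.63, and on control 3 it read 6.92. The groups overlapped, since the control arrays covered the whole range of the neighboring arrays. The difference was −0.03 ± 0.20 (SE; 95% interval −0.48 to 0.42; adjusted p = 0.918 in limma). The other CYBB probe set averaged 6.89 ± 0.26 in neighboring and 6.62 ± 0.32 in control glands (SD, n = 4 each) and differed by 0.26 ± 0.17 (SE, limma adjusted p = 0.275). Both probe sets were highest among neighboring arrays on neighboring 2 and lowest among control arrays on control 5.

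CYBA, which anchors the cytosolic subunits at the membrane, read 7.15, 7.78, 7.47 and 7.29 on neighboring 1 to 4 and 7.54 on neighboring 5. Control 1, 2, 4 and 5 read 7.72, 7.77, 7.64 and 7.60, while control 3 read 7.01. Neighboring 2 lay above every control, so the groups overlapped, although the other 3 neighboring arrays of the fit lay below all 4 control arrays of the fit. The difference of −0.26 ± 0.13 (SE) did not pass (95% interval −0.55 to 0.04; limma adjusted p = 0.164). Without neighboring 2 it was −0.37 with an adjusted p of 0.0352. On all 10 arrays the difference was −0.10 ± 0.16 (SE).

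Of the cytosolic subunits, NCF4 rose and NCF1 did not pass the test, and the difference between their changes was not tested. NCF1, the organizer whose phosphorylation starts assembly, read 5.16, 5.61, 5.94 and 5.31 on neighboring 1 to 4 and 5.95 on neighboring 5. It read 6.07, 6.20, 6.22 and 5.16 on control 1, 2, 4 and 5 and 5.87 on control 3. The groups overlapped through control 5, which was about as low as the lowest neighboring array. NCF1 lay near the filter limit of 5.71, with a mean of 5.50 in neighboring glands, under the limit, and 5.91 in control glands of the fit, above it. The difference was −0.41 ± 0.24 (SE; 95% interval −0.95 to 0.13; limma adjusted p = 0.226). Without control 5 it was −0.66 with an adjusted p of 0.0261.

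NCF4 encodes the subunit that binds phosphatidylinositol 3-phosphate on phagosomes and holds the oxidase there. Its probe set read 8.83, 8.86, 9.30 and 8.75 on neighboring 1 to 4. Control 1, 2, 4 and 5 read 7.67, 7.56, 7.87 and 7.83. All 4 neighboring arrays of the fit lay above all controls, whereas neighboring 5, at 7.65, lay within the control range and control 3, at 7.29, was the lowest of all. NCF4 averaged 8.93 ± 0.25 in neighboring and 7.73 ± 0.14 in control glands (SD, n = 4 each). It rose 2.30-fold, a difference of 1.20 ± 0.13 (SE, limma adjusted p = 0.000361). It was the 1 member past the stricter threshold of the study, set at 2-fold with an adjusted p below 0.01, which 2.76% of all kept probe sets passed. On all 10 arrays the rise was 2.04-fold with an adjusted p of 0.0301. With neighboring 5 alone put back the difference was 0.94 and the call was lost (adjusted p = 0.0502).

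**Figure D1:**
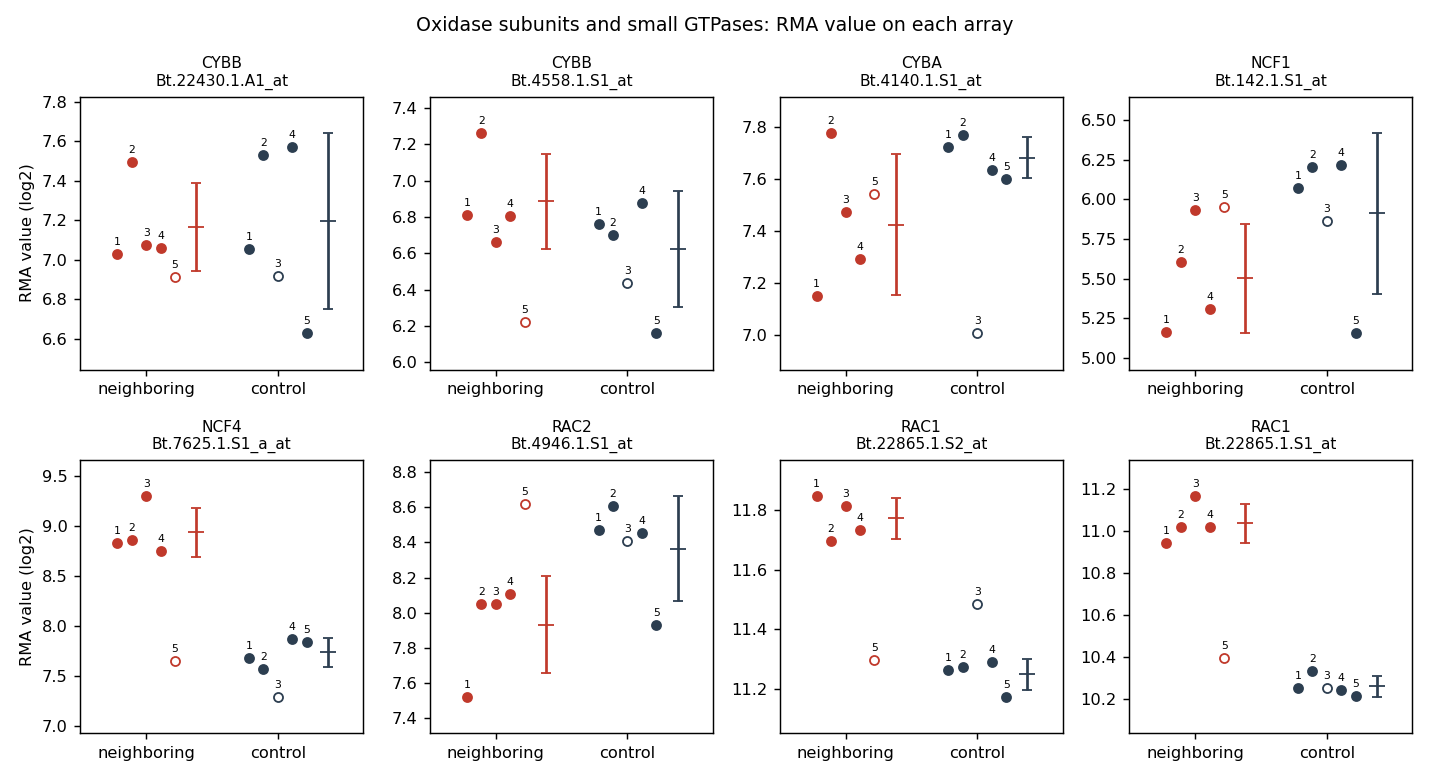
RMA values (log2; axes differ between panels) of the 8 kept probe sets of CYBB, CYBA, NCF1, NCF4, RAC2 and RAC1 on each array, neighboring left and control right, numbered by cow. Filled points are the 8 arrays of the fit, open points neighboring 5 and control 3, and bars mean ± SD over 4 arrays per group. NCF4 and both RAC1 probe sets stand apart between the filled points, while CYBB, CYBA, NCF1 and RAC2 overlap.

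Among the small GTPases, RAC1 rose and RAC2 did not pass. RAC2 is the form found mainly in blood cells and serves the oxidase of neutrophils, while RAC1 is present in most cells and also drives actin remodelling. RAC1 rose in both of its probe sets. The one with the lower signal read 10.94, 11.02, 11.16 and 11.02 on neighboring 1 to 4 and 10.40 on neighboring 5. Control 1 to 5 read 10.25, 10.33, 10.25, 10.24 and 10.22. Every neighboring array, neighboring 5 included, lay above every control, which held for 3.8% of all kept probe sets on 10 arrays. The rise was 1.71-fold, a difference of 0.77 ± 0.09 (SE, limma adjusted p = 0.000398), and 1.57-fold on all 10 arrays (adjusted p = 0.0227).

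The RAC1 probe set with the higher signal averaged 11.77 ± 0.07 in neighboring and 11.25 ± 0.05 in control glands (SD, n = 4 each). It rose 1.44-fold (difference 0.52 ± 0.09, SE, limma adjusted p = 0.00206). Here neighboring 5 read 11.30 and control 3 read 11.48, so that the groups overlapped once both arrays were included. On all 10 arrays the adjusted p was 0.0493.

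RAC2 read 7.52, 8.05, 8.05 and 8.10 on neighboring 1 to 4, against 8.47, 8.61, 8.45 and 7.93 on control 1, 2, 4 and 5. The arrays set aside read 8.62 for neighboring 5, the highest of all 10, and 8.41 for control 3. Control 5 alone made the groups of the fit overlap. The difference was −0.43 ± 0.17 (SE; 95% interval −0.81 to −0.05) and did not pass after adjustment (unadjusted p = 0.0302, adjusted p = 0.0828, limma). Without control 5 it was −0.58 with an adjusted p of 0.0252. It also passed after cyclic loess (adjusted p = 0.0497) and after a further quantile normalization (adjusted p = 0.0425).

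Markers of leukocytes, the phagocytes that carry the oxidase among them, did not move as 1 block. Of 8 measured pan-leukocyte markers, such as PTPRC and LAPTM5, 0 were called in limma (0 at an unadjusted p under 0.05, and 0 called on all 10 arrays). Their mean level was 7.60 to 7.92 in neighboring and 7.46 to 7.99 in control glands of the fit. On the 8 arrays 17.7% of all kept probe sets were called higher and 12% lower. On all 10 arrays 1032 of the 14409 kept probe sets were called higher and 774 lower. Of 11 macrophage and monocyte markers, 1 rose (LYVE1) and 3 fell (CD14, MSR1 and AIF1), with 7.59 to 8.14 in neighboring and 7.97 to 8.15 in control glands. On all 10 arrays CD14 and MSR1 were still called lower, while LYVE1 (0.47, adjusted p = 0.141) and AIF1 (−0.32, adjusted p = 0.379) were not called. Of 10 T and NK cell markers 5 fell and 0 rose (1 and 0 on all 10 arrays, and 10 at an unadjusted p under 0.05 on the 8), with 6.38 to 6.86 in neighboring and 6.99 to 7.25 in control glands. Neighboring 5, outside the fit, lay at 7.21 for this list.

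For neutrophils 5 of 12 markers were annotated. S100A8 averaged 8.01 in neighboring and 5.59 in control glands, and S100A12 averaged 7.53 in neighboring and 5.54 in control glands. Both passed the filter only through the neighboring group, so these values are a description and support nothing about neutrophil number. On neighboring 5, outside the fit, S100A8 read 8.23 and S100A12 read 8.06. CXCR1, PGLYRP1 and FCGR3A lay under the filter, with differences of −0.04, −0.54 and −0.43 that did not pass. Luminal epithelial markers averaged 12.30 to 12.53 in neighboring and 12.01 to 12.23 in control glands of the fit, with KRT19 and EPCAM higher and 0 lower of 10. Neighboring 5 lay at 12.15 and control 3 at 12.31, so that the 2 groups overlapped on all 10 arrays, where EPCAM was called and KRT19 was not (adjusted p = 0.0771). Of 7 myoepithelial markers 5 fell (4 on all 10 arrays), with 8.44 to 8.81 in neighboring and 9.18 to 9.71 in control glands. Of 7 fibroblast markers 3 fell and 1 rose (4 and 1 on all 10 arrays), with 8.79 to 9.49 in neighboring and 9.60 to 10.04 in control glands. The shares called over all kept probe sets were 17.7% higher and 12% lower on the 8 arrays. On all 10 arrays 1032 of the 14409 were called higher and 774 lower. The 1 adipocyte marker above the filter, FABP4, fell on the 8 arrays, with 11.29 to 11.86 in neighboring and 12.59 to 13.02 in control glands. Neighboring 5 read 12.84 and control 3 read 11.75 for it, and on all 10 arrays it was not called (−0.66, adjusted p = 0.128). The part of cell composition in the changes of NCF4, RAC1 and RAC2 was not tested.

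The remaining members were dim, with all their probe sets under the filter. NOS3 and the brightest NOS2 probe set missed it narrowly, averaging 5.69 and 5.70 over the 10 arrays. The limit was 5.71, and NCF1, which was kept, averaged 5.75. MPO was measured by a pair of probe sets. The one with the higher signal read 5.24, 5.46, 5.27 and 5.42 on neighboring 1 to 4 and 5.25 on neighboring 5. It read 5.36, 5.70, 5.76 and 5.59 on control 1, 2, 4 and 5 and 5.79 on control 3. Control 1 overlapped the neighboring range. The difference of −0.25 ± 0.11 (SE) did not pass, either on the 8 arrays (limma adjusted p = 0.134) or on all 10 (−0.31 ± 0.10, adjusted p = 0.0767). The other MPO probe set differed by −0.14 ± 0.09 (SE, limma adjusted p = 0.298).

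NOS2, the inducible nitric oxide synthase, had 4 probe sets that did not share a direction. The one second in signal fell in neighboring glands. It read 5.02, 5.18, 4.79 and 5.13 on neighboring 1 to 4, against 5.40, 5.47, 5.41 and 5.50 on control 1, 2, 4 and 5. The arrays of the fit did not overlap, as for 12.7% of all probe sets without a filter in this direction, but neighboring 5 lay at 5.45 among the controls and control 3 read 5.46. The difference was −0.41 ± 0.11 (SE; limma adjusted p = 0.0211 without a filter, where 9.21% of all probe sets were called lower). On all 10 arrays it was −0.33 ± 0.11 (SE) and was not called (adjusted p = 0.0857), where 3.04% of all probe sets were called lower. Nor was it called without neighboring 3 (adjusted p = 0.0572), without control 2 (0.0502) or without control 5 (0.0507).

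The other 3 NOS2 probe sets gave 0.08 ± 0.11, −0.09 ± 0.14 and 0.12 ± 0.12 (SE), with limma adjusted p from 0.503 to 0.679. Their ranges overlapped. The pair with the lowest signal of all members lay at 3.47 to 3.94 and 3.63 to 3.92 on neighboring 1 to 4, against 3.61 to 4.09 and 3.35 to 3.86 on the control arrays of the fit. Averaged over all 4 probe sets, NOS2 differed by −0.08 ± 0.10 (SE, limma adjusted p = 0.625). NOS3 read 6.15, 5.36, 5.51 and 5.46 on neighboring 1 to 4 and 5.67 on neighboring 5, against 5.81, 5.59, 5.55 and 5.80 on control 1, 2, 4 and 5 and 5.99 on control 3. Neighboring 1 was the highest and neighboring 2 the lowest of all 10. The difference was −0.07 ± 0.16 (SE; 95% interval −0.43 to 0.29; limma adjusted p = 0.802). Of 10 endothelial markers 0 were called in limma (2 at an unadjusted p under 0.05, and 0 called on all 10 arrays), and their mean level was 7.66 to 8.003 in neighboring and 7.67 to 8.02 in control glands.

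**Figure D2:**
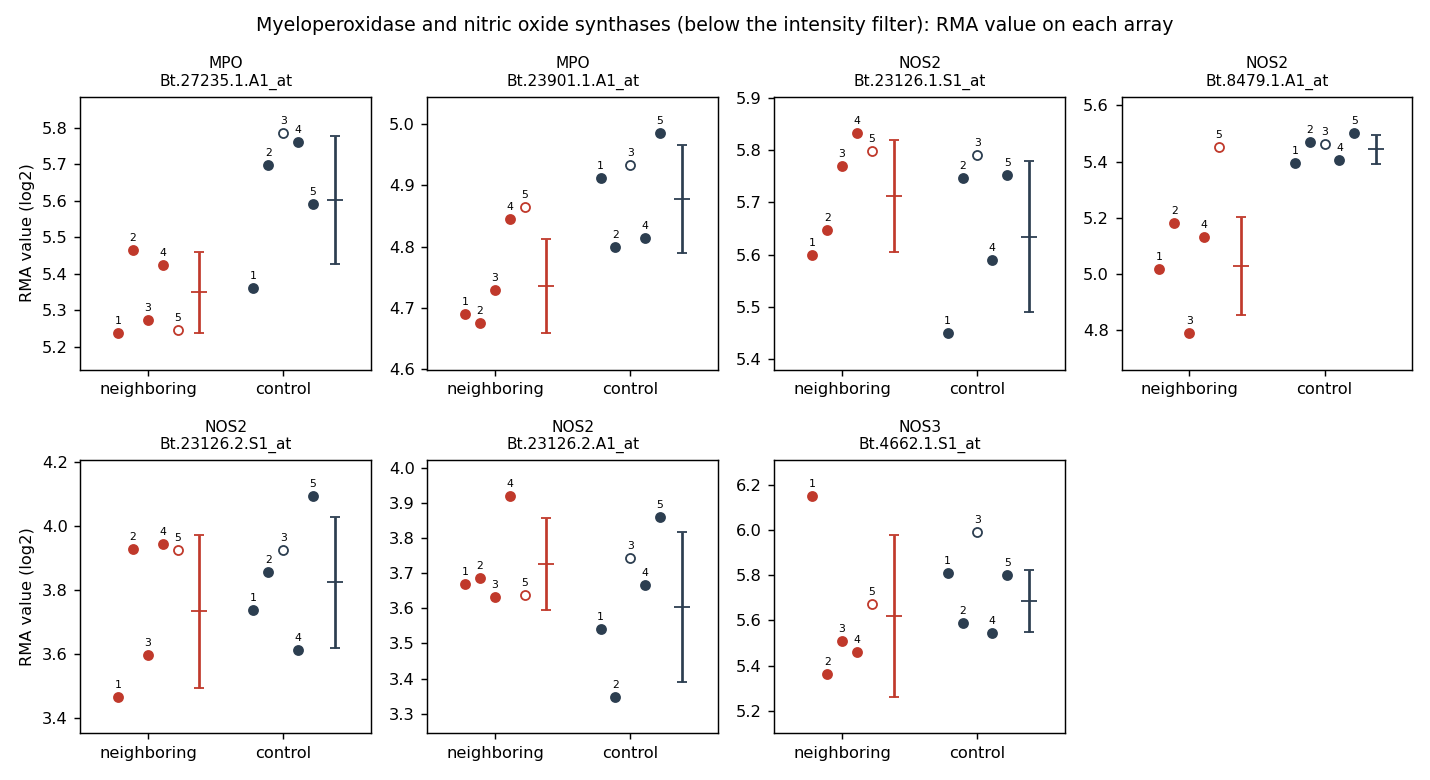
RMA values (log2; axes differ between panels) of the 7 probe sets of MPO, NOS2 and NOS3 that lay under the intensity filter, drawn as for the oxidase subunits, with neighboring left, control right, open points for the arrays set aside and bars for mean ± SD over 4 arrays per group. For the NOS2 probe set second in signal the filled neighboring points lie at 4.79 to 5.18 under the controls at 5.40 to 5.50, and neighboring 5 lies with the controls at 5.45.

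**Figure D3:**
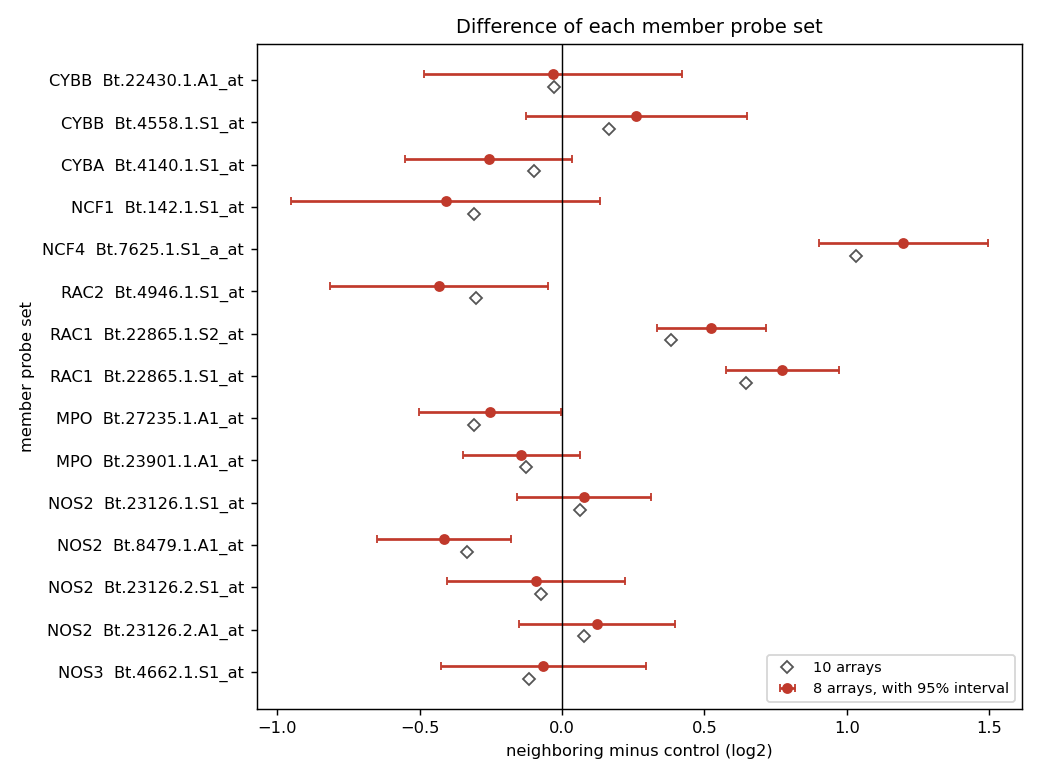
Difference of each of the 15 member probe sets, neighboring minus control on the log2 scale, with circles and 95% intervals from limma on 8 arrays and open diamonds for all 10 arrays. NCF4 lies at 1.20 and RAC1 at 0.52 and 0.77, and the intervals of these probe sets lie above 0. The intervals of RAC2, of the MPO probe set with the higher signal and of the NOS2 probe set second in signal lie below 0. All remaining intervals span 0.

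Partner genes of the oxidase were mostly without a called change. Of 23 listed partners 13 could be tested above the filter. In limma 1 was called higher and 0 lower, beside 17.7% and 12% of all kept probe sets. At an unadjusted p under 0.05 there were 2, and 0 were called on all 10 arrays. The median difference was 0.11. The one that rose was RAC3, a GTPase close to RAC1 in sequence. It read 6.71, 7.61, 7.63 and 7.28 on neighboring 1 to 4 and 6.62 on neighboring 5. On control 1, 2, 4 and 5 it read 6.58, 6.65, 6.68 and 6.35, and on control 3 it read 6.25. The 4 neighboring arrays of the fit lay above all controls, neighboring 1 only narrowly. RAC3 rose 1.67-fold (0.74 ± 0.19, SE, limma adjusted p = 0.0161), with an adjusted p of 0.0508 on all 10 arrays. CYBC1, the chaperone needed to make CYBB protein, differed by 0.26 ± 0.10 (SE, adjusted p = 0.07). The integrin chain ITGB2, the receptor TLR4 and the exchange factor VAV1 gave 0.18 ± 0.16, 0.19 ± 0.11 and −0.28 ± 0.22 (SE), and ITGAM, the partner of ITGB2 on phagocytes, lay under the filter. Of 10 listed genes of related oxidases 2 were annotated, the oxidase NOX4 and the oxidase activator NOXA1, while NOX1, DUOX1 and DUOX2 were not. Both lay under the filter, with differences of −0.14 ± 0.15 and −0.04 ± 0.12 (SE) that did not pass.

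Around nitric oxide, 18 of 29 listed genes could be tested above the filter, with 1 higher and 3 lower (1 and 2 on all 10 arrays), with a median difference of 0.06. Over all kept probe sets 17.7% were called higher and 12% lower on the 8 arrays. On all 10 arrays 1032 of the 14409 were called higher and 774 lower. The counts of the list were not tested against these backgrounds. ASL, the argininosuccinate lyase that renews arginine, rose 1.67-fold (0.74 ± 0.15, SE, limma adjusted p = 0.00609). ASS1, the enzyme before it, differed by −0.23 ± 0.13 (adjusted p = 0.193). GUCY1B1, a subunit of the soluble guanylate cyclase that senses nitric oxide, fell by 0.61 ± 0.12 (SE, adjusted p = 0.00418). DDAH2, which breaks down methylarginines that inhibit the synthases, fell by 0.46 ± 0.10 (adjusted p = 0.00753). CALM3, a calmodulin gene, fell by 0.35 ± 0.09 (adjusted p = 0.0153), a call not made on all 10 arrays (adjusted p = 0.109). GCH1, which starts synthesis of the cofactor tetrahydrobiopterin, and ARG1, the arginase of the urea cycle, lay under the filter and gave −0.08 ± 0.14 and −0.15 ± 0.13 (SE).

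**Figure D4:**
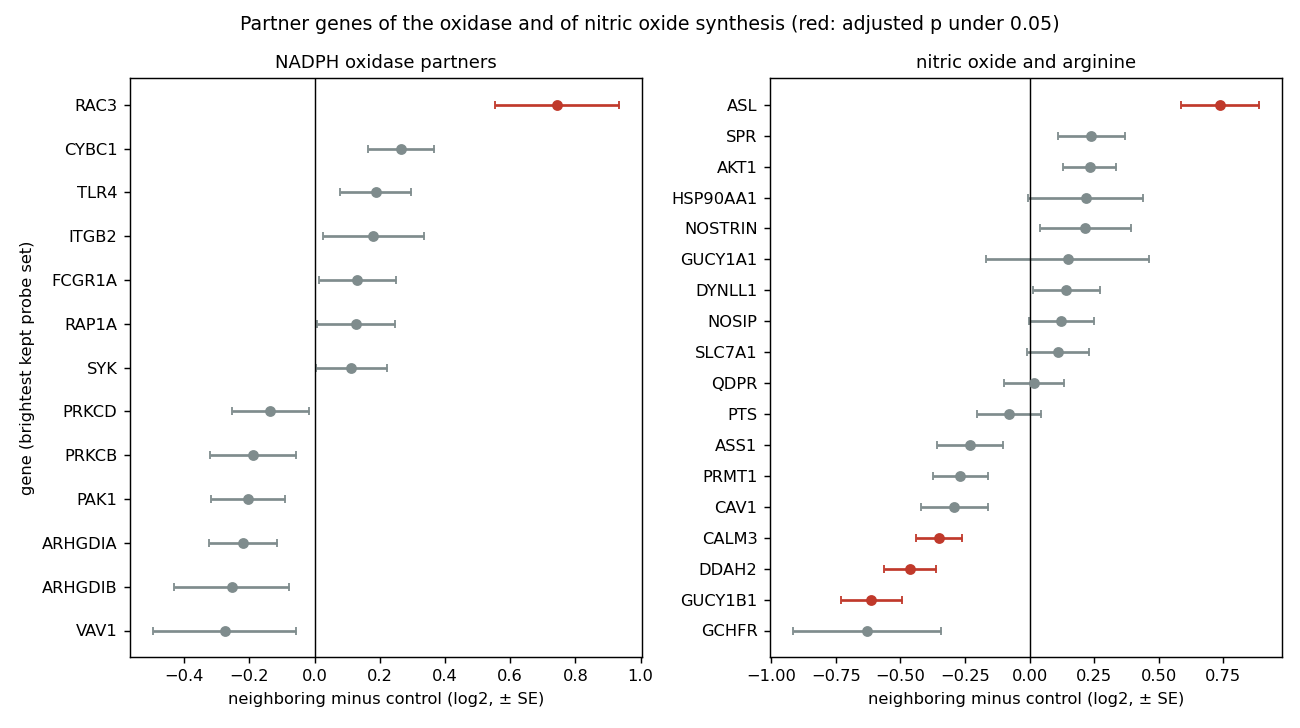
Difference (neighboring minus control, log2, ± SE from limma on 8 arrays) of partner genes that passed the filter, 13 of the oxidase on the left and 18 of nitric oxide and arginine on the right, with genes called at an adjusted p under 0.05 in red. RAC3 and ASL lie highest at 0.74 each, and CALM3, DDAH2 and GUCY1B1 are the called genes below 0.

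Granule proteins and peroxidases were measured by 3 genes above the filter. The peroxidase LPO rose, 1 of the 3, beside 17.7% of all kept probe sets called higher. LPO, the lactoperoxidase of milk, rose 1.43-fold (0.51 ± 0.16, SE, limma adjusted p = 0.0336, and 0.0505 on all 10 arrays). LTF, the iron-binding lactoferrin, differed by 0.14 ± 0.30 (SE). The brightest kept probe set of S100A9, the partner of S100A8, differed by 0.17 ± 0.10 (SE, limma adjusted p = 0.221) and did not pass. On all 10 arrays it differed by 0.28 (adjusted p = 0.108). The paper counts S100A9 among the genes differentially expressed in neighboring glands, at its stricter threshold of 2-fold with an adjusted p below 0.01. Only the brightest kept probe set was read here, and the probe set behind the call of the paper was not identified. The neutrophil elastase ELANE and the cathelicidin CATHL1 lay under the filter with adjusted p of 1.00 and 0.968, which did not pass.

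Genes outside the group that followed each member most closely were taken by Pearson correlation over the 10 arrays, which include the difference between the groups, as a description with no test. Each member was represented by its brightest probe set. For NOS2 this was not the probe set called lower, with which it correlated at −0.05. The MPO probe sets correlated at 0.39 with each other. NCF4 was closest to SDS, a serine dehydratase (r = 0.97), MANBAL and PKIG, and RAC1 was closest to TRNT1 (r = 0.99), OGA and CFAP97. RAC2 was closest to CORO1A, an actin-binding protein of leukocytes (r = 0.95), CD3G of the T cell receptor complex (r = 0.92) and SRGN, a granule proteoglycan. With the group means taken out, these 3 kept values of 0.97, 0.89 and 0.88. NCF1 was closest to BHLHE40 (r = 0.94), APBB1IP and AFF1, CYBA to LGALS1 (r = 0.95), EMP3 and TTR, and CYBB to TPPP3 (r = 0.89), RARRES1 and CRIM1. For the dim members the closest genes were GGT6 for MPO (r = 0.88), RPUSD3 for NOS2 (r = 0.89) and MTA2 for NOS3 (r = 0.93). With the group means taken out, the first-named gene gave 0.95 for NCF4, 0.98 for RAC1, 0.93 for NCF1, 0.95 for CYBA and 0.89 for CYBB. It gave 0.70 for MPO, 0.89 for NOS2 and 0.94 for NOS3. The 3 closest genes shared no name between members.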

How the data were processed

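RNA from mammary tissue of 10 cows was measured on Affymetrix bovine arrays, 1 array per cow. Deposited values are on a log2 scale, 1 for each probe set, and were computed by the authors with RMA (background correction, quantile normalization over arrays, summary over probes), which compresses fold changes and hides a change shared by most transcripts. The version of that software is not given in the sources used. Groups and replicate numbers came from the array titles. The source field of the control arrays carries the text of the neighboring group, against their titles and descriptions. Array control probe sets (112) were left out, 13292 probe sets carried 1 gene symbol, 86 several and 10638 none, and 13263 were matched to the reference gene table for current symbols.

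The fit used limma 3.58.1 in R 4.3.3 (lmFit, eBayes, Benjamini-Hochberg adjustment), without neighboring 5 and control 3 as in the methods of the study, on the 14409 probe sets with a mean over the 10 arrays above 5.71. SE is limma's moderated standard error. Each adjusted p comes from limma. For lists a gene was represented by its brightest kept probe set. Members and lists were chosen with earlier results of these data known. Named genes were all members, up to 5 called genes per related list, a fixed set of partners, and 3 closest genes per member. Genes named from the marker lists beyond these, and VAV1, TLR4, ITGB2, NOXA1, S100A9, ELANE and CATHL1, were picked with their values in view. The number of arrays limits the precision. Alternatives covered the arrays entered, filter, scaling, variance model, array weights, replicate block, a covariate and the probe set per gene. The procedure was checked on simulated arrays.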

Additional observations from a re-analysis of the deposited data

Results flagged for a closer look

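In 4 of the 30 groups of 5 arrays checked, 1 array lay far from the others of its group (the gap to its nearest neighbor was over 0.71 of the whole range, which chance alone gives in about 1 of 20 groups). The CYBB probe set with the higher signal read 7.50 on neighboring 2, against 6.92 to 7.07 on the other neighboring arrays. CYBA read 7.01 on control 3, against 7.60 to 7.77 on the other controls. The RAC1 probe set with the higher signal read 11.30 on neighboring 5, against 11.70 to 11.85 on the other neighboring arrays. The NOS2 probe set with the lowest signal read 3.92 on neighboring 4, the sample from a single gland, against 3.63 to 3.69 on the others. Control 3 and neighboring 5 are the arrays outside the fit.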

How the results depend on the processing

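NCF4 and both RAC1 probe sets kept their direction under every alternative and their calls without any single array (NCF4 1.08 to 1.26). NCF4 was not called with neighboring 5 put back (0.94, adjusted p = 0.0502), with a replicate block on all 10 arrays (1.03, adjusted p = 0.0561) or with the level of the hybridization spikes in the model (0.96, adjusted p = 0.0644). The last setting also ended the RAC1 calls (0.74 ± 0.16, SE, adjusted p = 0.055, and 0.43 ± 0.15, SE, adjusted p = 0.166). The block ended the call of the RAC1 probe set with the higher signal (adjusted p = 0.0573 on 8 arrays and 0.0551 on 10). Counts of member probe sets called higher, 3, became 2 with neighboring 5 put back and with the block on 8 arrays, 1 with the block on all 10 arrays and 0 with the covariate, and stayed 3 without any single array. Counts called lower, 0 of the 8 kept, became 1 without a filter (NOS2), with only the lowest 20% left out (NOS2), after cyclic loess (RAC2), after another quantile normalization (RAC2) and with the replicate block on 8 arrays (NCF1), and ran from 0 to 2 without single arrays. It was 1 without neighboring 2 (CYBA) and 2 without control 5 (NCF1 and RAC2). Over all probe sets, 398 passed the stricter threshold of the study, against 15 on all 10 arrays, 4 with neighboring 5 put back, 119 with the block on 8 arrays, 0 with it on all 10, 27 with the covariate, and 326 to 458 without single arrays.

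Replicate numbers name different cows, and deviations of same-numbered arrays correlated at −0.19 to 0.17, so they pair nothing, and the block values stand here only.

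Reversed signs concerned differences that were not called. For the CYBB probe set with the higher signal the difference was 0.023 with control 3 put back and 0.11 as the mean of both CYBB probe sets, and ran from −0.22 to 0.093 without single arrays. For NOS2 the mean of all its probe sets was −0.076, against the sign of the brightest and the dimmest. The NOS2 probe set just above the dimmest gave 0.0136 after cyclic loess, 0.0126 after quantile normalization, 0.044 with the block on 8 arrays and 0.29 with the covariate. NOS3 gave 0.0031 after cyclic loess and 0.0108 with the block, and −0.24 to 0.021 without single arrays. The call of the NOS2 probe set second in signal was lost under 9 of 22 alternatives. The causes were not tested.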
